A study of Arabidopsis thaliana with 48 samples.

Results

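The 39 genes described here encode cyclins A, B and D, the cyclin-dependent kinases CDKA and CDKB, the replicative helicase subunits MCM2 to MCM7, the sliding clamp PCNA, E2F factors, the retinoblastoma protein RBR1, Aurora kinases and the cytokinesis syntaxin KNOLLE of Arabidopsis thaliana. They were listed by gene identifier and not by a threshold on their values, though with earlier results of these data known. All 39 were found among the 28496 identifiers counted in every library. By role they form an S-phase group of 9 genes, a mitotic group of 19, a D-cyclin group of 6 and an entry-regulator group of 5 (CDKA-1, RBR1 and the E2F genes). Gene names are those in common use, with a hyphen in place of the semicolon in names of the type CYCB1-2. For some genes the RefSeq symbol differs, such as CYC1BAT for CYCB1-2, SYP111 for KNOLLE, PRL for MCM7 and CDC2 for CDKA-1. E2FA, E2FB and E2FC are E2F3, E2F1 and ATE2F2 in RefSeq.

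Dividing plant cells pass from growth into DNA replication when D-type cyclins, bound to CDKA, relieve the hold of RBR1 on E2F factors, and E2F factors then switch on genes for replication such as MCM and PCNA. A later wave, which depends on MYB3R factors, brings the B-type cyclins, CDKB kinases, Aurora kinases and KNOLLE, whose transcripts are at their highest around mitosis. In a seedling these transcripts come mostly from the shoot and root meristems and from young leaf primordia, a small share of all cells.

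Whole seedlings of 8 lines were compared, all with an estradiol-inducible construct. Those labelled CNA and PHB bear the names of CORONA and PHABULOSA, HD-ZIPIII transcription factors (class III, with a homeodomain and a leucine zipper). The other 6 are CNA-SDdelta and PHB-SDdelta, the pair CNA-KnC3HDZ and CNA-KnC3HDZ_8m, and the lines CNA-SmHOX32 and CNA-PpHOX32. Chimeric CNA constructs are among them according to the submitters, and the labels do not explain the suffixes. T2 seedlings on agarose plates were sprayed at 9 days of age with 50 µM β-estradiol in DMSO and Silwet L-77 (induced) or with DMSO and Silwet L-77 alone (mock), and were collected 24 h later, as 10-day seedlings. Each of the 16 groups held 3 libraries of 3′ end reads from polyadenylated RNA, 48 in all. The labels give neither the number of plants in a library nor the number of transformants behind a line, and no line without a construct is among the samples, so effects of the construct and of β-estradiol itself cannot be told apart.

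The smallest library, PHB induced replicate 3, held 1808765 counts and the largest, CNA-KnC3HDZ induced replicate 2, held 37222617 (median over 48 libraries 5944946.5). The transcript of the induced factor was higher in all 3 induced libraries than in all 3 mock libraries of its line in all 8 lines, and the difference passed the test in 7 of them. The exception was CNA-SDdelta, where the CNA transcript averaged 23.6 ± 9.85 CPM in induced seedlings and 11.9 ± 4.18 CPM in mock seedlings (SD, n = 3 each; adjusted p = 0.216). CPM are counts per 1000000 of the scaled library total. Unless another test is named, every adjusted p-value here is from edgeR's quasi-likelihood test with Benjamini-Hochberg adjustment over the 18909 genes that passed a low-count filter, and a difference is said to have passed the test when it lay under 0.05. The libraries are labelled as biological replicates, with no statement of separate plantings, so the p-values measure the spread between these libraries.

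Most of the cell cycle genes were counted thinly in these whole-seedling libraries. Of the 39 genes, 28 passed the low-count filter, and the median of their mean counts per library was 8.49, against 71.8 for all genes tested. A mean under 10 counts was found for 15 of the 28 (53.6%), against 2828 of all genes tested (15.0%). The 11 genes that did not pass were MCM6 (AT5G44635), CYCA3-1 (AT5G43080), CYCB1-1 (AT4G37490), CYCB2-1 (AT2G17620), CYCB2-2 (AT4G35620), CYCB2-4 (AT1G76310), CYCA1-1 (AT1G44110), CYCA2-1 (AT5G25380), CYCA2-4 (AT1G80370), CDKB1-2 (AT2G38620) and CYCD4-1 (AT5G65420). Their mean levels lay between 0.0347 CPM (CYCA2-1) and 0.386 CPM (MCM6). The 7 best counted genes were CDKA-1 (AT3G48750, 37.1 CPM, a mean of 271.5 counts), RBR1 (AT3G12280, 14.8 CPM), PCNA2 (AT2G29570, 11.8 CPM), CYCD3-2 (AT5G67260, 11.5 CPM), CYCD2-1 (AT2G22490, 10.3 CPM), CYCD1-1 (AT1G70210, 8.96 CPM) and CYCD3-3 (AT3G50070, 5.19 CPM). The order of these levels compares 3′ tags per transcript, which do not grow with transcript length. A library held between 11 and all 39 of the genes, and a floor of 3 counts corresponded to between 0.0800 and 1.5 CPM depending on the library. Such floors cover counting error only, since molecular identifiers are not described.

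**Figure D1:**
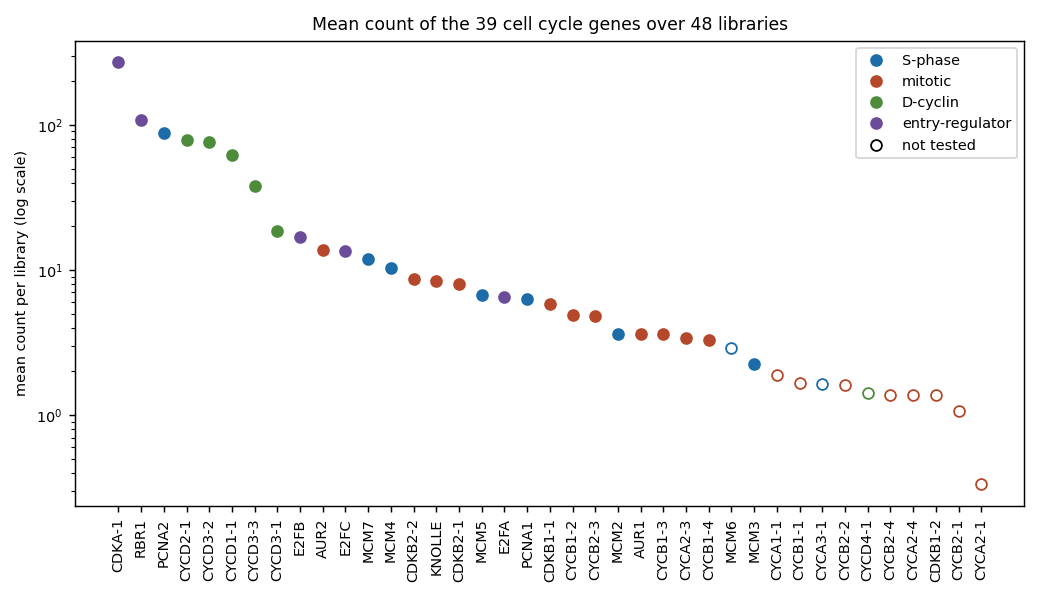
Mean count per library over the 48 libraries (log axis) for each of the 39 genes, ordered from the highest to the lowest and coloured by role, with open circles for the 11 genes that were not tested. CDKA-1, at 271.5 counts, RBR1, PCNA2 and the D-cyclins lead the order, and most mitotic genes lie under 10 counts.

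For induction 0 of the 28 tested genes passed the test in 7 lines, and 1 gene, CYCB1-2 (AT5G06150), passed in CNA-KnC3HDZ_8m. Of all tested genes, between 3.3% and 10.1% passed. Not passing does not show that a gene was unchanged. Even for the 7 genes with a mean of at least 30 counts, the median standard error of a single-line log2 fold change was 0.66. In CNA 0 of 28 passed the test against 8.01% of all genes, in PHB 0 against 9.43%, in CNA-SDdelta 0 against 4.8% and in PHB-SDdelta 0 against 7.03%. In CNA-KnC3HDZ 0 of 28 passed against 3.3%, in CNA-KnC3HDZ_8m 1 against 7.01%, in CNA-SmHOX32 0 against 10.1% and in CNA-PpHOX32 0 against 5.48%. At an unadjusted p under 0.05 there was 1 gene each in CNA (20.1% of all genes), CNA-KnC3HDZ (9.47%) and PHB-SDdelta (15.9%). There were 2 each in CNA-SDdelta (15.1%), PHB (20.2%) and CNA-KnC3HDZ_8m (16.1%), and 3 each in CNA-PpHOX32 (18.4%) and CNA-SmHOX32 (24.9%). DESeq2 called 1 each in CNA-PpHOX32 (8.49% of all tested genes) and CNA-SmHOX32 (15.2%), CDKB2-2 (AT1G20930) in both. In every other line it called 0, against 4.39% to 12.2% of all tested genes. The shares of all genes are not matched for level.

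Few of the genes separated the induced from the mock libraries completely. All 3 induced libraries lay on 1 side of all 3 mock libraries for 4 of 28 genes in CNA, 4 in PHB, 3 in CNA-SDdelta and 2 in PHB-SDdelta, against 24.9%, 25.4%, 22.7% and 29.4% of all tested genes in these lines. The count was 5 for CNA-KnC3HDZ (24.2% of all tested genes), 6 for CNA-KnC3HDZ_8m (27%), 0 for CNA-SmHOX32 (17.8%) and 1 for CNA-PpHOX32 (17.2%). The median log2 fold change over the 28 genes ran from -0.93 in PHB, where the median of all genes was -0.04, to 0.23 in PHB-SDdelta, where it was 0.07. With genes at the floor in 1 group set to their bound and those without a usable bound left out, these medians became -0.30 over 27 genes in PHB and 0.04 over 27 genes in PHB-SDdelta. PHB was then no longer the lowest, and the lowest bounded median was -0.45 over 23 genes in CNA-PpHOX32.

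**Figure D2:**
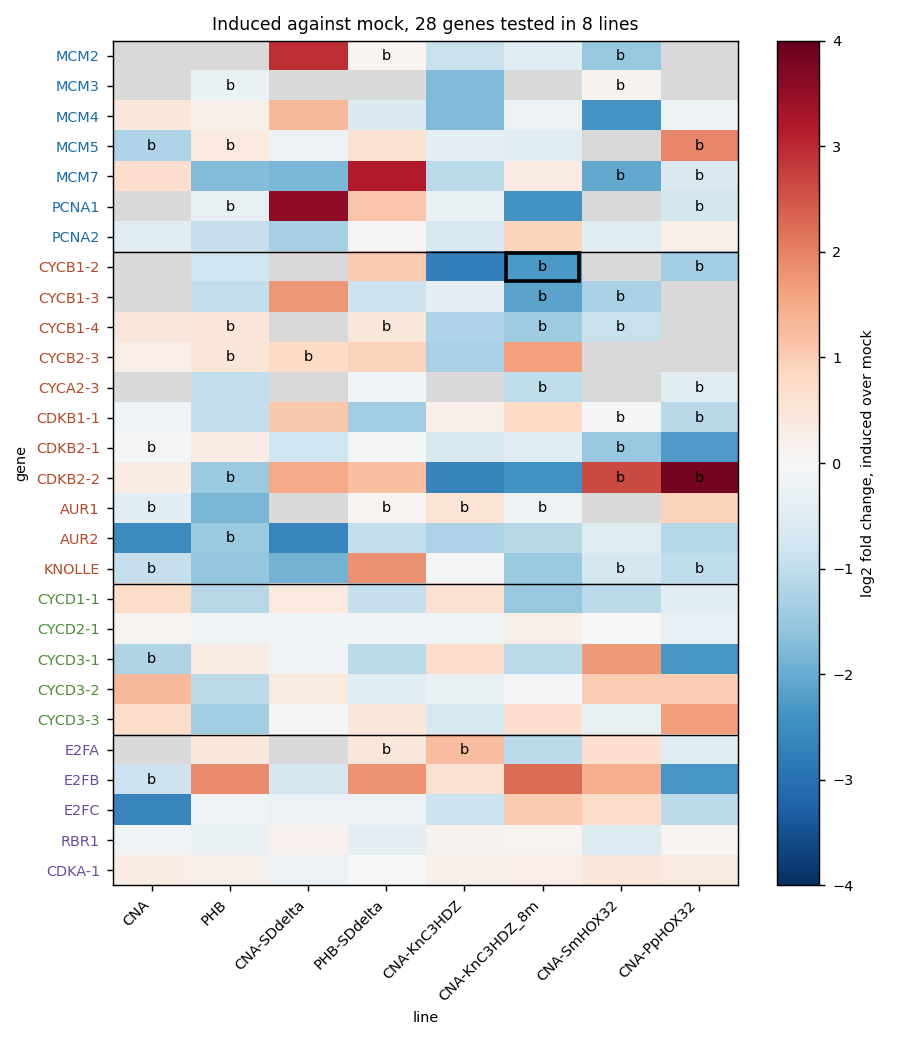
Log2 fold change, induced over mock, of the 28 tested genes (rows, by role) in the 8 lines (columns), with b marking values that are bounds against the floor of 3 counts. Grey marks genes with both groups at the floor, or with 1 group there and no usable bound. The black frame marks CYCB1-2 in CNA-KnC3HDZ_8m, the only value with an adjusted p under 0.05, and the deepest colours fall on different genes in different lines.

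Among the replication genes, none of the 7 tested passed the test in any line or on average over the lines. The MCM2 (AT1G44900) to MCM7 (AT4G02060) proteins form the ring-shaped helicase that is loaded at replication origins. Their mean levels lay between 0.299 CPM for MCM3 (AT5G46280) and 1.66 CPM for MCM7, and MCM6 was not tested. Among the tested MCM genes MCM7 had the lowest average, a log2 fold change of -0.86 ± 0.56 (SE) that did not pass the test (adjusted p = 0.273). MCM4 (AT2G16440) averaged -0.39 ± 0.56 and MCM5 (AT2G07690) 0.05 ± 0.64, and neither passed (adjusted p = 0.701 for MCM4 and 1.00 for MCM5). MCM2 and MCM3 each had a group at 0 in all its libraries, and a model with a treatment effect common to all lines, added after seeing the data, gave -0.24 ± 0.81 for MCM2 and -0.66 ± 0.76 for MCM3. MCM2 had 0.23, 1.21 and 0.93 CPM in the 3 PHB-SDdelta induced libraries and 0 in each mock library of that line, at least 1.04-fold higher (adjusted p = 0.233). MCM2 also lay higher in the CNA induced libraries, with 0.30, 1.18 and 0.42 CPM, against 0, 0.11 and 0.19 CPM in CNA mock libraries, with every library of both groups at or under 3 counts.

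PCNA, the ring that holds DNA polymerase on its template, has 2 genes in Arabidopsis, and PCNA2 carried nearly all of its counts, with a mean of 11.8 CPM against 0.856 CPM for PCNA1 (AT1G07370). In PHB, PCNA2 had 5.65, 11.8 and 8.0 CPM in induced libraries and 15.5, 17.3 and 15.5 CPM in mock libraries. These groups did not overlap, but the log2 fold change of -0.93 ± 0.60 did not pass the test (adjusted p = 0.424). In CNA-SDdelta it had 6.80, 7.80 and 4.81 CPM in induced libraries and 18.3, 4.79 and 25.2 CPM in mock libraries, which overlapped. In CNA-KnC3HDZ_8m the order was turned, with 19.8, 9.92 and 10.9 CPM in induced libraries and 11.0, 6.33 and 4.14 CPM in mock libraries. On average over the 8 lines the log2 fold change of PCNA2 was -0.33 (95% interval -0.75 to 0.10, adjusted p = 0.277). PCNA1 had a common treatment effect of -0.83 ± 0.75 (adjusted p = 0.478). ENOC, on the opposite strand, covers the 3′ end of PCNA2. Of the 39 genes, 15 overlap another annotated gene, and whether counting used the strand is not given in the sources used here, so reads of such pairs cannot be told apart.

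CYCA3-1, an A-type cyclin of the S-phase group, was at 0 in 31 of 48 libraries and was not tested. Summed over the 9 S-phase genes, the level ran from 8.29 to 26.0 CPM in induced libraries (median 15.3) and from 5.75 to 32.9 CPM in mock libraries (median 19.9, n = 24 each). The mean sum of the induced libraries was between 0.493 times that of mock in PHB and 1.37 times in PHB-SDdelta. The libraries did not overlap in PHB and CNA-KnC3HDZ, where all induced sums were lower, nor in PHB-SDdelta, where all were higher. In PHB the sums averaged 11.5 ± 3.39 CPM in induced and 23.4 ± 4.005 CPM in mock libraries, and in PHB-SDdelta 21.6 ± 1.82 CPM in induced and 15.7 ± 2.70 CPM in mock libraries (SD, n = 3 each). The sums are mostly PCNA2, and no test was made of them. Over the 7 tested genes alone, the mean of log2 CPM differed in sign from the sum of the same 7 in CNA, CNA-SDdelta and CNA-KnC3HDZ_8m. In CNA-KnC3HDZ_8m, for example, the sum of the 7 was 1.23 times that of mock with induction while their mean log2 CPM differed by -0.25.

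The mitotic genes, which carry the later wave, held the only members that passed a test. Averaged over the 8 lines with equal weight, 2 of the 28 tested genes passed, both lower after induction, against 28.5% of all tested genes, of which 14.3% were lower and 14.2% higher. They were AUR2 (AT2G25880), 1 of the 3 Aurora kinase genes of Arabidopsis, whose products phosphorylate histone H3 and act at the spindle and the division plane, and KNOLLE (AT1G08560), the syntaxin that fuses vesicles into the cell plate. DESeq2 called 3, these and CYCB1-2, against 31.5% of all tested genes. In edgeR 3 of the 28 genes had an unadjusted p under 0.05, against 36.7% of all tested genes. In bulk seedlings, fewer dividing cells and less of these transcripts per cell cannot be told apart.

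AUR2 ran from 0 to 5.33 CPM in induced libraries, with a median of 0.648, and from 0 to 8.92 CPM in mock libraries, with a median of 2.67 (n = 24 each). It was detected in 18 induced and 22 mock libraries. Its mean was lower with induction in 8 of 8 lines, and the average log2 fold change was -1.73 ± 0.55 (SE; adjusted p = 0.0129). In PHB it had 0.13, 0 and 0.50 CPM in induced libraries and 3.97, 1.79 and 1.12 CPM in mock libraries. In CNA-SDdelta it had 1.36, 0 and 0.61 CPM in induced libraries and 2.26, 5.59 and 4.86 CPM in mock libraries. In these 2 lines the groups did not overlap, and in the other 6 they did. The model with a common treatment effect gave -1.64 ± 0.55 (adjusted p = 0.0197), and the call held in each of the 48 fits of that model that left out 1 library (adjusted p between 0.00525 and 0.0440). The call was lost when all libraries were thinned to the smallest total, where the log2 fold change was -1.08 (adjusted p = 0.219). In the equal-weight average the call was also lost without CNA-SmHOX32 mock replicate 1, where the log2 fold change was -0.94 (edgeR adjusted p = 1.00). Without CNA-PpHOX32 induced replicate 2 it was -2.56 and passed (edgeR adjusted p = 0.000206). Each omission left AUR2 at 0 in every remaining library of its group. With a group at 0 the average can lack a usable error, so neither fit measures how firm the call is.

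KNOLLE ran from 0 to 3.89 CPM in induced libraries, with a median of 0.170, and from 0 to 4.67 CPM in mock libraries, with a median of 1.24 (n = 24 each). It was detected in 14 induced and 18 mock libraries, and its mean was lower with induction in 7 of 8 lines, PHB-SDdelta being the exception. The average log2 fold change was -2.23 ± 0.65 (SE; adjusted p = 0.00609), and it holds the CNA line, where all 3 induced libraries were at 0. The model with a common treatment effect gave -1.85 ± 0.70 (adjusted p = 0.0455). That call was lost in 24 of 48 fits that left out 1 library, with adjusted p up to 0.126, and in no line did the induced and mock libraries separate. In the equal-weight average it was lost without CNA-SmHOX32 mock replicate 3, where the log2 fold change was -1.53. That omission left KNOLLE at 0 in every remaining library of the group. NPQ1, the violaxanthin de-epoxidase gene of the opposite strand, covers the 3′ end of KNOLLE over 464 bases and was counted far more often, with a mean of 194 counts against 8.38 for KNOLLE. NPQ1 itself ran from 3.91 to 45.8 CPM in induced libraries and from 7.52 to 52.3 CPM in mock libraries, with an average log2 fold change of -0.45 ± 0.18 (adjusted p = 0.0548) and lower means in 7 of 8 lines. Without the strand setting, reads of NPQ1 and KNOLLE cannot be told apart.

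**Figure D3:**
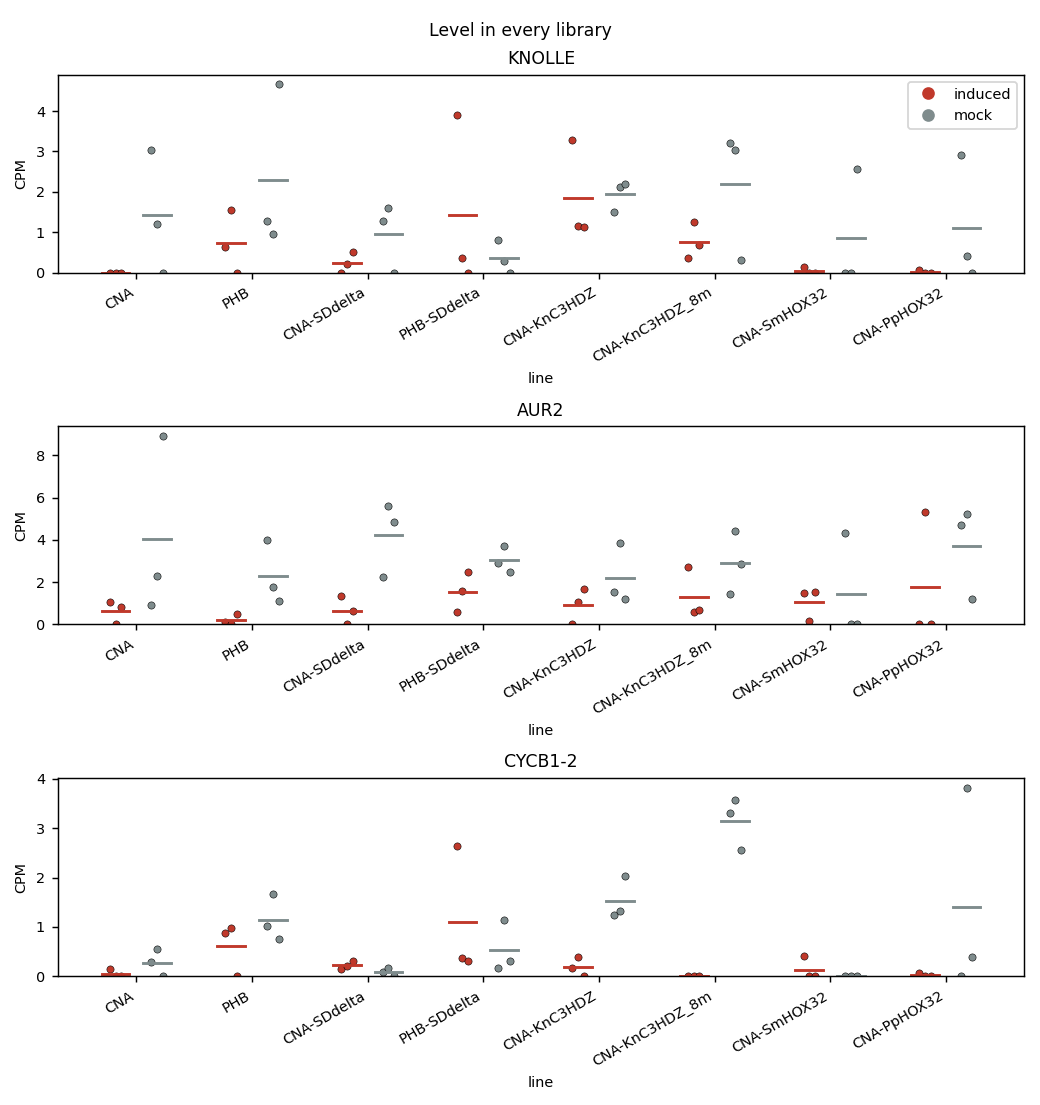
CPM of KNOLLE, AUR2 and CYCB1-2 in every library of the 8 lines, with induced libraries (red points) left of mock libraries (grey points) in each line and a horizontal line at the mean of the 3 libraries. AUR2 means are lower with induction in 8 of 8 lines, with overlapping points in 6 of them, and CYCB1-2 is at 0 in all 3 CNA-KnC3HDZ_8m induced libraries.

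CYCB1-2, a B1-type cyclin that marks the G2 phase and mitosis, was lower in CNA-KnC3HDZ_8m after induction. It had 0, 0 and 0 counts in the induced libraries and 35, 13 and 8 counts in the mock libraries, or 0, 0 and 0 CPM against 3.31, 3.58 and 2.55 CPM. Against the floor of 3 counts per induced library this is at least 4.95-fold lower (adjusted p = 0.0246), the only call among the 28 genes in that line, where 3.51% of all tested genes were lower. DESeq2 gave no adjusted p for this gene, and the call was lost when any 1 of the 3 induced libraries was left out. CNA-KnC3HDZ without the _8m suffix had 0.16, 0.40 and 0 CPM in induced libraries and 1.24, 1.33 and 2.03 CPM in mock libraries, which did not overlap but did not pass the test (adjusted p = 0.738). CYCB1-2 was at 0 in all 3 mock libraries of CNA-SmHOX32. Its mock levels differed among lines with an adjusted p of 0.0747, and its response with an adjusted p of 0.0819. With a common treatment effect its log2 fold change was -1.43 ± 0.76 (adjusted p = 0.181).

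The promoters of the mitotic and S-phase genes differ in 2 kinds of sequence element that were not used to choose the genes. The core of the mitosis-specific activator element bound by MYB3R factors, AACGG, and the E2F cores TTCCCGC and TTGGCGC were searched on both strands in the 250 bases before the annotated start of each gene, and none of the 3 strings contains another. AACGG was found in 12 of 19 mitotic genes (63.2%) and 2 of 9 S-phase genes (22.2%), against 20.7% of the 28008 genes with a start in RefSeq. An E2F core was found in 6 of 9 S-phase genes (66.7%) and in 0 of 19 mitotic genes, against 1.89% of all genes. The D-cyclin genes had AACGG in 1 of 6 and an E2F core in 1 of 6, and the entry regulators in 2 of 5 and 1 of 5. The promoters of the genes described above are given 5′ to 3′ on the strand of the gene, from the RefSeq TAIR10.1 assembly, with the matches in capitals. They lie at chr1:2711001-2711250 (KNOLLE), chr2:11038192-11038441 (AUR2), chr5:1861704-1861953 (CYCB1-2) and chr2:12651754-12652003 (PCNA2), all on the minus strand, and show how near the start the matches stand.
KNOLLE: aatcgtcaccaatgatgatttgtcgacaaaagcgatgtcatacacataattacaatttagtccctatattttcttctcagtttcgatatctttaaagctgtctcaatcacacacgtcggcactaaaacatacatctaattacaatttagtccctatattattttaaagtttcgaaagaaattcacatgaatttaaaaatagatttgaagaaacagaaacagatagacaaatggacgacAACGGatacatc
AUR2: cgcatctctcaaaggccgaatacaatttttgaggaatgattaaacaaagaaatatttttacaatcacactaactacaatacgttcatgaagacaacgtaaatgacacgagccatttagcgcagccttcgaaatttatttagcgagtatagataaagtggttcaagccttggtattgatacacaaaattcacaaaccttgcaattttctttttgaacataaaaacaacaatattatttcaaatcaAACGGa
CYCB1-2: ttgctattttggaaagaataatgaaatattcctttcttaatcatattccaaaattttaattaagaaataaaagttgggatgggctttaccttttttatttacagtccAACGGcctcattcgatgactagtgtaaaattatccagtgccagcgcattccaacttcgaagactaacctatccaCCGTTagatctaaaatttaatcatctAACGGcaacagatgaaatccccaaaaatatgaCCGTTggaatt
PCNA2: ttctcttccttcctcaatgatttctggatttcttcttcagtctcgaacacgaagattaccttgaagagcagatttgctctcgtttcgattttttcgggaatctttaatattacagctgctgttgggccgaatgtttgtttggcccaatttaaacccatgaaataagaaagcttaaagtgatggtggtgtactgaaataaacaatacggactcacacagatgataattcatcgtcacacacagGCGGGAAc
KNOLLE and AUR2, the genes with a lower average after induction, carry 1 AACGG match each, within 12 bases of the start. CYCB1-2 carries 4 matches, 2 of them on each strand. PCNA2 carries an E2F core 8 bases from its start and no AACGG match. A match describes letters in a window and is no evidence of binding.

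The other mitotic genes did not pass the test in any line or on average. Of the B-type cyclins, CYCB1-3 (AT3G11520) and CYCB1-4 (AT2G26760) were tested and had mean levels of 0.610 and 0.432 CPM. With a treatment effect common to all lines their log2 fold changes were -0.77 ± 0.93 for CYCB1-3 and -0.04 ± 1.88 for CYCB1-4. CYCB1-1, the common reporter of G2 and mitosis, was at 0 in 28 of 48 libraries. The 8 untested mitotic genes were at 0 in 28 to 36 of 48 libraries. Of the B2-type cyclins only CYCB2-3 (AT1G20610) was tested, with a common treatment effect of 0.61 ± 0.78 on the log2 scale. The A-type cyclins act from S phase to mitosis, and the one tested in the mitotic group, CYCA2-3 (AT1G15570), averaged -0.64 ± 0.68 (adjusted p = 0.564). CYCA2-4, not tested for its low counts, was detected in 15 of 24 induced and 5 of 24 mock libraries, and its mean was higher with induction in 8 of 8 lines. It was called in the average only when the low-count filter was dropped.

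The B-type cyclin-dependent kinases are particular to plants and act at G2 and mitosis. CDKB2-1 (AT1G76540) averaged -1.30 ± 0.61 on the log2 scale, lower in 7 of 8 lines, and did not pass the test (adjusted p = 0.110). CDKB1-1 (AT3G54180) averaged -0.45 ± 0.66 (adjusted p = 0.704). CDKB2-2 was carried by single libraries: it had 11.2, 1.04 and 0 CPM in CNA-SmHOX32 induced libraries against 0 in each mock library, and 0.06, 0 and 16.6 CPM in CNA-PpHOX32 induced libraries against 0, 0 and 0.20 CPM in mock libraries. The adjusted p was 0.0662 in CNA-SmHOX32 and 0.128 in CNA-PpHOX32, and in both lines 1 induced library held most of the counts. Its common treatment effect was 0.52 ± 1.03 (adjusted p = 0.782). AUR1 (AT4G32830), the close relative of AUR2, had a common treatment effect of -0.52 ± 0.77 (adjusted p = 0.697) and was lower in 4 of 8 lines. AUR1 and AUR2 both overlap a gene of the opposite strand, PFK6 and AT2G25890, which adds uncertainty of strand. PFK6 covers the 3′ end of AUR1. AT2G25890 does not cover that of AUR2, and had a median of 0 CPM in induced and in mock libraries and a mean of 6.40 counts, against 13.8 for AUR2.

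Summed over the 19 mitotic genes, the level ran from 1.03 to 19.8 CPM in induced libraries (median 7.72) and from 5.75 to 32.8 CPM in mock libraries (median 11.7, n = 24 each). The mean sum was lower with induction in 6 of 8 lines, from 0.375 times mock in CNA-KnC3HDZ_8m to 1.12 times in PHB-SDdelta. In CNA-KnC3HDZ_8m the sums averaged 7.77 ± 3.74 CPM in induced and 20.7 ± 11.5 CPM in mock libraries, and in PHB 7.35 ± 3.96 CPM in induced and 17.9 ± 8.29 CPM in mock libraries (SD, n = 3 each), with overlap in both. Only in CNA-KnC3HDZ did the sums separate, at 8.60 ± 1.24 CPM in induced and 12.5 ± 2.78 CPM in mock libraries. The gap there was narrow, with a highest induced sum of 9.81 CPM and a lowest mock sum of 9.99 CPM. The mean of log2 CPM over the 11 tested mitotic genes was lower in 7 of 8 lines, with differences from -1.26 in CNA-KnC3HDZ_8m to 0.38 in PHB-SDdelta. By this measure the libraries overlapped in CNA-KnC3HDZ and separated only in CNA-PpHOX32, where the difference was -0.63. In CNA-SDdelta and CNA-SmHOX32 that difference was small, at -0.07 and -0.09, and its sign turned when 1 library was left out, to 0.26 in CNA-SDdelta and 0.10 in CNA-SmHOX32. These sums count few molecules, with a median of 40.5 counts in induced and 73.5 counts in mock libraries.

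**Figure D4:**
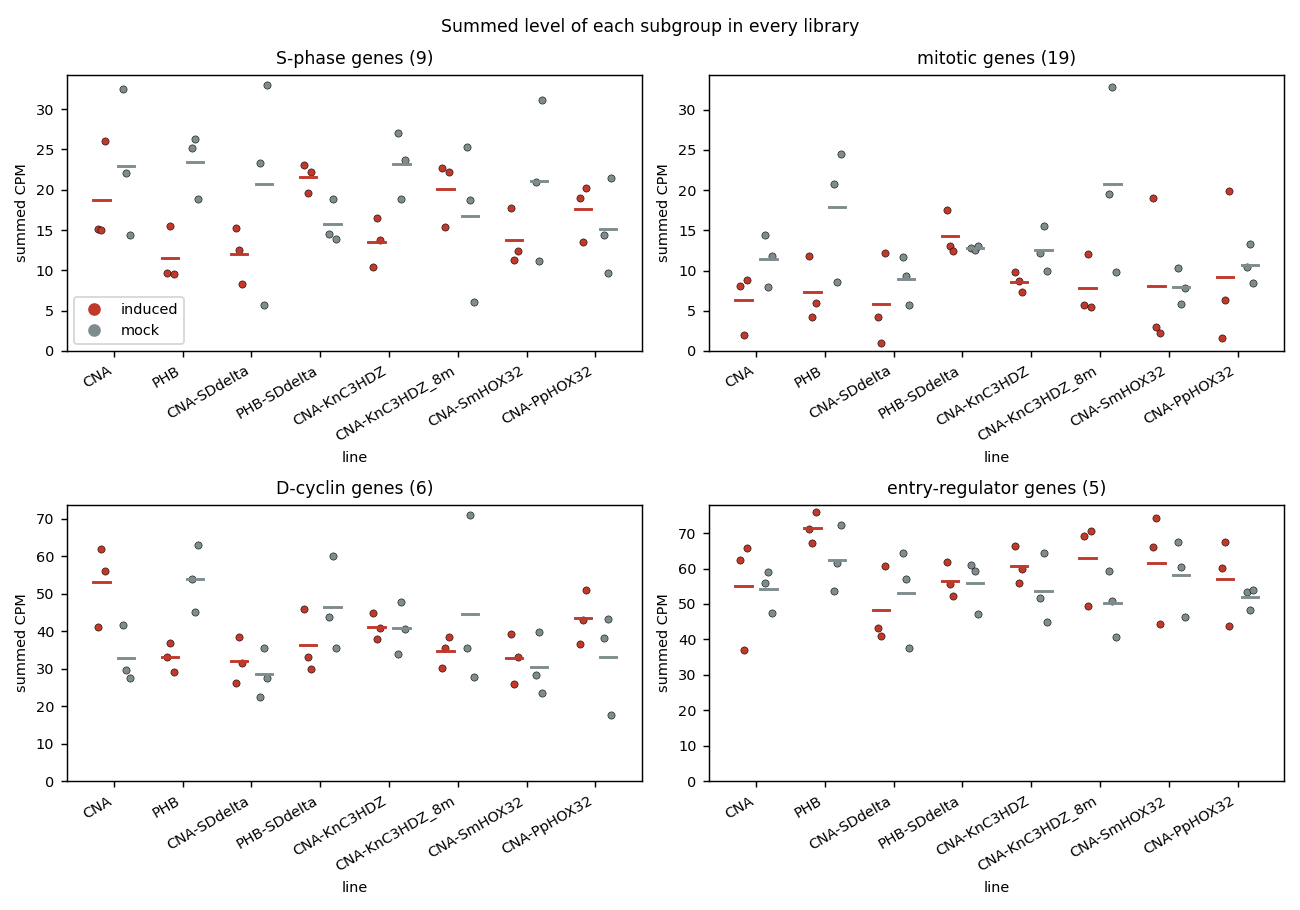
Summed CPM of the S-phase, mitotic, D-cyclin and entry-regulator genes in each library of the 8 lines, with induced libraries (red points) left of mock libraries (grey points) and a horizontal line at the mean of 3. Mitotic sums have a median of 7.72 CPM in induced and 11.7 CPM in mock libraries, and D-cyclin sums 37.4 CPM in induced and 36.9 CPM in mock libraries.

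D-type cyclins couple growth signals to the start of the cycle, and CYCD3 genes are tied to leaf and cambium proliferation. None of the 5 tested passed the test in any line or on average, and their counts were high enough for narrower intervals. CYCD1-1 averaged -0.42 on the log2 scale (95% interval -0.98 to 0.14, adjusted p = 0.292), CYCD2-1 -0.07 (-0.59 to 0.45, adjusted p = 0.936), CYCD3-2 0.23 (-0.23 to 0.70, adjusted p = 0.524) and CYCD3-3 0.13 (-0.63 to 0.89, adjusted p = 0.896). CYCD3-1 (AT4G34160), counted more thinly, averaged -0.61 (-1.60 to 0.38, adjusted p = 0.411). CYCD4-1 was not tested.

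The D-cyclins differed in direction between lines without passing a test. CYCD3-2 had 11.6, 20.5 and 27.7 CPM in CNA induced libraries and 10.1, 10.4 and 3.61 CPM in CNA mock libraries, a log2 fold change of 1.29 ± 0.66 (adjusted p = 0.260). CYCD3-2 had 4.65, 7.34 and 2.50 CPM in PHB induced libraries and 7.43, 6.93 and 16.8 CPM in PHB mock libraries. The first pair of groups did not overlap and the second did, and the difference between the responses of PHB and CNA did not pass the test (adjusted p = 0.269). CYCD3-1 separated in CNA in the other direction, at 0.30, 0 and 0.21 CPM in induced and 0.92, 0.55 and 3.80 CPM in mock libraries (adjusted p = 0.290). It also lay lower without overlap in CNA-KnC3HDZ_8m, at 1.44, 1.94 and 2.73 CPM in induced and 2.74, 6.61 and 3.18 CPM in mock libraries. CYCD1-1 had 9.80, 4.44 and 10.0 CPM in PHB induced libraries and 14.3, 13.3 and 25.01 CPM in PHB mock libraries, and in CNA-KnC3HDZ_8m 4.68, 7.98 and 4.10 CPM in induced and 11.1, 24.0 and 13.4 CPM in mock libraries. In CNA-KnC3HDZ its order was turned, at 13.9, 9.26 and 10.9 CPM in induced and 8.54, 8.08 and 5.42 CPM in mock libraries. In all 3 of these lines the CYCD1-1 groups did not overlap, with adjusted p of 0.479, 0.364 and 1.00.

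Summed over the 6 D-cyclins, the level ran from 26.0 to 62.0 CPM in induced libraries (median 37.4) and from 17.8 to 71.1 CPM in mock libraries (median 36.9). PHB was the only line whose libraries separated, at 33.0 ± 3.95 CPM in induced and 54.0 ± 8.82 CPM in mock libraries, or 0.612 times. CNA lay at the other end, at 53.0 ± 10.8 CPM in induced and 32.9 ± 7.62 CPM in mock libraries, or 1.61 times, with overlap (SD, n = 3 each). In PHB the S-phase sums and the D-cyclin sums were both below mock in all libraries, and the sum of all 39 genes was 0.782 times mock, also without overlap. In CNA-PpHOX32 the sum of all 39 was 1.15 times mock without overlap, as was that of the 28 tested genes, while the mean log2 CPM of those 28 differed by -0.38. No test was made of the sums.

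Among the entry regulators, CDKA-1 was the best counted of the 39 genes, and none of the 5 genes passed the test in any line or on average. CDKA-1, the main cyclin-dependent kinase of the plant cell cycle, ran from 20.4 to 57.1 CPM in induced libraries and from 18.9 to 56.2 CPM in mock libraries. It averaged 0.19 on the log2 scale (95% interval -0.05 to 0.42, adjusted p = 0.263), higher in 6 of 8 lines. RBR1, the repressor of E2F targets, averaged -0.10 (-0.48 to 0.28, adjusted p = 0.789), higher in 4 and lower in 4 lines. For CDKA-1 and RBR1 the intervals exclude an average change of 1 on the log2 scale in either direction.

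Of the E2F genes, E2FA (AT2G36010) and E2FB (AT5G22220) encode factors that activate the cycle and E2FC (AT1G47870) one that restrains it. E2FA had 1.47, 0.53 and 1.13 CPM in CNA-KnC3HDZ induced libraries and 0 in each mock library, at least 2.38-fold higher, and did not pass the test (adjusted p = 0.237). E2FB had 4.32, 4.10 and 5.12 CPM in CNA-KnC3HDZ_8m induced libraries and 0.85, 1.65 and 0.32 CPM in mock libraries (adjusted p = 0.499), and 6.30, 2.06 and 6.37 CPM in PHB-SDdelta induced libraries and 1.79, 1.43 and 0.93 CPM in mock libraries (adjusted p = 0.645). In each of these 3 the groups did not overlap. E2FC separated in CNA in the other direction, without passing the test (adjusted p = 0.384). It had 1.20, 0 and 0.63 CPM in CNA induced libraries and 4.15, 1.43 and 6.84 CPM in CNA mock libraries. Over the lines E2FB averaged 0.25 (adjusted p = 0.820) and E2FC -0.41 (adjusted p = 0.665) on the log2 scale. E2FA, with a mock group at 0, had a common treatment effect of 0.0050 ± 0.58 (adjusted p = 0.996).

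The 7 genes with a mean of at least 30 counts give the firmest view of size. Over their 56 inductions the log2 fold change ran from -1.51 to 1.67, with a median of -0.04 and a median SE of 0.66. The smallest adjusted p was 0.260, and 1 of 56 had an unadjusted p under 0.05, PCNA2 in CNA-SDdelta. Errors in a single line were wider for the genes with fewer counts, as for AUR2 in PHB, at least 2.80-fold lower against the floor of 3 counts per induced library (adjusted p = 0.237).

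**Figure D5:**
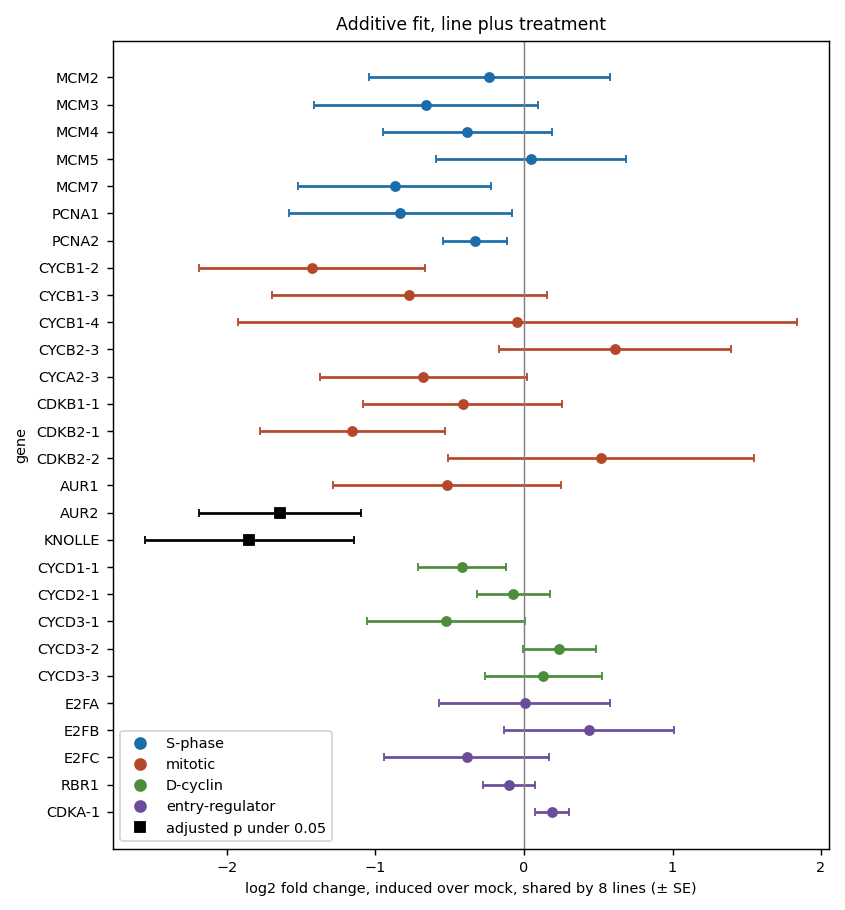
Log2 fold change, induced over mock, of the 28 tested genes in the model with a treatment effect common to the 8 lines, with bars at ± 1 SE, colours for role and black squares for an adjusted p under 0.05. AUR2 lies at -1.64 and KNOLLE at -1.85, and CDKA-1, RBR1 and PCNA2 have the shortest bars.

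Differences between lines were tested directly and none of these genes passed. The response to induction differed among the 8 lines for 0 of 28 genes against 8.92% of all tested genes. At an unadjusted p under 0.05 there were 4, against 19.6% of all tested genes. Mock libraries differed among lines for 0 of 28 against 17.9%, with 2 at an unadjusted p under 0.05 against 28.9%. DESeq2 was not run for these joint tests. Between pairs of lines 0 of 28 responses differed, in edgeR and in DESeq2. The shares of all genes called by edgeR were 1.44% for PHB against CNA, 0.106% for CNA-SDdelta against CNA and 0.111% for PHB-SDdelta against PHB. They were 1.53% for CNA-KnC3HDZ against CNA and 3.93% for CNA-KnC3HDZ_8m against CNA-KnC3HDZ. For CNA-SmHOX32 against CNA the share was 2.74%, and for CNA-PpHOX32 against CNA 0.783%. At an unadjusted p under 0.05, in the same order, there were 3 genes (11.4% of all genes), 0 (7.99%), 4 (5.44%), 2 (9.82%), 2 (11.1%), 5 (16.7%) and 2 (11.9%). The 4 of PHB-SDdelta against PHB all had the higher response in PHB-SDdelta, and the median difference of the 28 genes there was 0.75 on the log2 scale, against 0.09 over all genes. That median was taken without bounds, though 8 of the 28 genes in PHB and 5 in PHB-SDdelta had 1 group at the floor. The pairs of lines compared share control libraries and lines and are not independent of each other.

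Genes outside the 39 that control or accompany the cycle passed the test in both directions. Of 13 tested inhibitors of cyclin-dependent kinases, 5 passed the test in the average over the lines, 3 lower and 2 higher, against 28.5% of all tested genes, 14.3% lower and 14.2% higher. These shares hold for all lists that follow. KRP1 had a median of 16.5 CPM in induced and 32.2 CPM in mock libraries, with a log2 fold change of -0.82 ± 0.19 (adjusted p = 0.000409), and SIM, which drives trichome cells into endoreduplication, 37.0 CPM in induced and 53.3 CPM in mock libraries (-0.61 ± 0.12, adjusted p = 7.38e-05). KRP2 was lower, at -0.83 ± 0.29 (adjusted p = 0.0248). KRP7 was higher, with a median of 2.18 CPM in induced and 0 CPM in mock libraries and a common treatment effect of 3.39 (adjusted p = 0.000224). Its call in the equal-weight average was lost without CNA induced replicate 3, at 3.44 against 4.07 on the log2 scale. That omission left KRP7 at 0 in every remaining library of the group. KRP4, at 0.35 ± 0.13 (adjusted p = 0.0364), did not pass with a common treatment effect (adjusted p = 0.0726), and single-library omission ended its call in 28 of 48 cases.

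Of 13 histone H3.1 and H4 genes, whose products package newly replicated DNA, 5 were lower and none higher in the average, where 14.3% of all tested genes were lower. H4g (AT5G59690) had a median of 181 CPM in induced and 243 CPM in mock libraries, a log2 fold change of -0.55 ± 0.08 (adjusted p = 1.35e-07). H31d (AT5G10400) was lower, at -0.68 ± 0.19 (adjusted p = 0.00444), as were H4f (AT3G53730) at -0.31 ± 0.09 (adjusted p = 0.00557) and H4c (AT2G28740) at -0.46 ± 0.14 (adjusted p = 0.0112). The coding sequences of these histone genes are nearly alike, so their counts are uncertain where reads fall in shared sequence. Of 11 replication licensing and DNA synthesis genes, 2 were lower: TSO2, a subunit of ribonucleotide reductase, at -0.50 ± 0.18 (adjusted p = 0.0312), and CDC45, a helicase cofactor, at -1.87 ± 0.72 (adjusted p = 0.0428), which did not pass with a common treatment effect (adjusted p = 0.173). Omitting a single library ended the call of TSO2 in 5 of 48 cases and that of CDC45 in 22 of 48.

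Of 9 further mitosis and cytokinesis genes 1 passed: AUR3, the third Aurora kinase gene, was higher at 1.86 ± 0.71 (adjusted p = 0.0427), against the direction of AUR2, and did not pass with a common treatment effect (adjusted p = 0.128). Omitting a single library ended its call in 27 of 48 cases. Of 7 cell cycle transcription factors, DEL2, an atypical E2F-like factor, was higher at 2.31 ± 0.70 (adjusted p = 0.00838), a call lost without CNA-SDdelta induced replicate 3 (1.70) or CNA-SmHOX32 induced replicate 1 (1.79). None of 13 other cyclins and cyclin-dependent kinases and none of 5 endocycle and anaphase-promoting complex genes passed.

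Markers of tissues passed the test in some lists and not in others, to be read against the 14.3% of all tested genes that were lower in the average. All 4 mesophyll markers were lower after induction, RCA at -1.62, RBCS1A at -1.31, LHCB1-3 at -1.12 and GAPA at -0.999 on the log2 scale, and their summed level ran from 5345 to 18833 CPM in induced libraries (median 8770) and from 10596 to 33559 CPM in mock libraries (median 21614). Of 3 tested shoot meristem markers 1 was lower, KNAT1 at -0.46 ± 0.15 (adjusted p = 0.0119), and the list summed to a median of 26.9 CPM in induced and 34.0 CPM in mock libraries (ranges 9.48 to 39.2 and 16.3 to 71.4 CPM). Of 4 differentiated root markers 2 were lower, CASP1 at -1.19 ± 0.17 (adjusted p = 3.55e-08) and PYK10 at -0.38 ± 0.07 (adjusted p = 3.19e-05), with summed ranges of 264 to 927.2 CPM in induced and 385 to 1016 CPM in mock libraries. None of 5 proliferating leaf markers (medians of 60.0 CPM in induced and 58.2 CPM in mock libraries), 4 stomatal lineage markers (8.24 and 13.4 CPM) and 1 root meristem marker passed. No marker was at 0 in all libraries, and the part of tissue makeup in the values of AUR2 and KNOLLE was not tested.

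Across the 48 libraries, the genes with the profile most like the mean log2 CPM of the tested mitotic genes were ADS1 (Pearson r = 0.69), AT4G11320 (0.65), BGLU21 (0.64), VSR6 (0.63) and AT4G29310 (0.63), of 16068 candidates. The mitotic genes themselves correlated with the mean of the others at between 0.0986 (AUR2) and 0.556 (CYCB1-2). The libraries share lines, treatments and depth in these values, which are a description only.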

How the data were processed

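Transcripts were measured in 48 libraries of whole seedlings, prepared with Lexogen QuantSeq 3′ from Trizol-extracted polyadenylated RNA, per the labels' protocols. The authors deposited raw counts per gene, 1 table per library, with no normalization. The submitters' processing notes name Trimmomatic, STAR, featureCounts, DESeq2 and the build TAIR10; the roles and settings of these tools, strand and molecular identifiers included, are not given in the sources used here.

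From the counts, R 4.3.3 with edgeR 4.0.16 kept genes by filterByExpr, scaled libraries by TMM and fitted 1 mean per group to all 48 libraries (common biological coefficient of variation 60.9%, 32 residual degrees of freedom). There were 18 comparisons: 8 inductions, their equal-weight average, 2 joint tests among lines and 7 differences between the responses of pairs of lines, each adjusted over 18909 genes. CPM and log2 values were computed here, with a prior count of 2 in log2 CPM. A standard error is the size of the log2 fold change divided by the root of the F statistic, and is approximate at low counts. For 11 of the 28 tested genes a group was at 0 in all its libraries, and for CYCB1-2, CYCB1-3 and CYCB1-4 the equal-weight average has no usable error, so a model of line plus treatment was added after seeing the data. Bounds used a floor of 3 counts per library. The steps were tested on simulated data.

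Alternatives were DESeq2 size factors, DESeq2 1.42.0 (Wald test), genes unfiltered or kept at a mean of 10 counts or more, fits of the compared lines alone, a replicate block, thinning to the smallest total and leaving out each library. Chi-square tests found no replicate pair that agreed within sampling noise. The genes and lists were chosen with earlier results of these data known. All 39 genes are accounted for, and genes outside them are named where they passed the average test, at most 4 per list by adjusted p. KRP4, the fifth of its list, and the genes of the closing part were named after their values were seen. Sequences, overlaps and the names of genes outside the lists come from RefSeq TAIR10.1, which holds 28009 of the identifiers. Figures were drawn with Python 3.11.15 and matplotlib 3.10.9.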

Additional observations from a re-analysis of the deposited data

Results flagged for a closer look

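None of the 39 genes met a rule for closer inspection, and groups of 3 libraries allow no check for outlying libraries. In 6 cases a gene of the accompanying lists responded differently in 2 lines, by the test of the difference itself. Of all tested genes, 3.93% did so for CNA-KnC3HDZ_8m against CNA-KnC3HDZ, 2.74% for CNA-SmHOX32 against CNA and 0.783% for CNA-PpHOX32 against CNA. The mock levels of SMR5, LHCB1-3, GAPA and RCA also differed among lines in the joint test, as did those of 17.9% of all tested genes.

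SMR5, a CDK inhibitor induced by stress, averaged 10.3 ± 1.01 CPM in induced and 3.79 ± 2.12 CPM in mock seedlings of CNA-KnC3HDZ_8m, and 6.32 ± 1.69 CPM in induced and 14.8 ± 4.76 CPM in mock seedlings of CNA-KnC3HDZ (SD, n = 3 each). The responses differed by 2.73 ± 0.81 on the log2 scale (edgeR adjusted p = 0.0386). Neither induction of SMR5 passed alone (edgeR adjusted p = 0.139 in CNA-KnC3HDZ_8m and 0.401 in CNA-KnC3HDZ). In the same pair LHCB1-3 differed by -1.25 ± 0.31 (adjusted p = 0.00697), with 2688 CPM in induced and 8446 CPM in mock seedlings of CNA-KnC3HDZ_8m, and 5316 and 7047 CPM in those of CNA-KnC3HDZ. GAPA differed there by -0.76 ± 0.23 (adjusted p = 0.0431).

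RCA responded more strongly in CNA-SmHOX32, at 233 CPM in induced and 1798 CPM in mock seedlings, than in CNA, at 694 and 2154 CPM, a difference of -1.31 ± 0.34 (adjusted p = 0.0214). CDKF1, a CDK-activating kinase, averaged 39.4 ± 5.81 CPM in induced and 18.03 ± 5.94 CPM in mock seedlings of CNA-SmHOX32, and 20.2 ± 13.0 CPM in induced and 33.4 ± 7.35 CPM in mock seedlings of CNA, a difference of 1.83 ± 0.51 (adjusted p = 0.0354). CASP1 averaged 4.59 ± 2.34 CPM in induced and 33.6 ± 17.7 CPM in mock seedlings of CNA-PpHOX32, and 42.2 ± 10.3 CPM in induced and 43.5 ± 7.72 CPM in mock seedlings of CNA, a difference of -2.89 ± 0.68 (adjusted p = 0.0221).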

How the results depend on the processing

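No call of a named gene changed direction under any alternative run. In CNA-KnC3HDZ_8m the 1 called gene became 0 with DESeq2, without a low-count filter, with the replicate block, thinned, with a mean of at least 10 counts (CYCB1-2 not tested there), and when single libraries were left out (range 0 to 1), and 2 (CYCB1-2 and CYCB1-3) in a fit of that line alone. Thinning to the smallest total called 1 gene in CNA-SDdelta, PCNA2. In CNA-SmHOX32, DESeq2 and the fit without a filter called 1, CDKB2-2. In CNA-PpHOX32, DESeq2 called 1 (CDKB2-2), and leaving out single libraries gave 0 to 1 (AUR2, without CNA-PpHOX32 induced replicate 2). In the average, 2 calls became 1 (AUR2) with a mean of at least 10 counts (KNOLLE not tested there) or the replicate block, and 0 thinned. Leaving out single libraries gave 1 to 3 calls in the average, and 1 to 2 with the common treatment effect. In the average there was 1 call without CNA-SmHOX32 mock replicate 1 or 3, which left AUR2 or KNOLLE at 0 in the rest of that group. The difference of responses among lines and that among mock libraries each gave 1 call without a filter (CDKB2-2 and CYCB2-2), and 0 to 1 when single libraries were left out: without CNA induced replicate 1 or CNA-PpHOX32 mock replicate 1 for the responses, and without CNA-PpHOX32 mock replicate 2 for the mock libraries. The difference of CNA-KnC3HDZ_8m and CNA-KnC3HDZ gave 1 (CYCD1-1) in a fit of those lines alone. The other 138 such counts were within 1.5 times. For the accompanying lists, 32 counts moved by more, such as 5 CDK inhibitors to 3 with the block and 2 thinned. Of the mean log2 CPM differences of subgroups, 18 values moved beyond the replicate spread and 1 of them turned, the D-cyclins in CNA-SDdelta, at -0.43 thinned against 0.11. Another 20 turned within that spread. Calls of named genes were lost in 31 values, most often of KRP4 and AUR3. Replicate numbers do not pair the libraries: over 24 pairs of same-numbered libraries the correlation of deviations ran from -0.03 to 0.08, with 0 over 0.1. Not run were DESeq2 for the joint tests, the block for mock lines, and the fit of single lines for the average and joint tests.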

Other observations

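In single lines some genes of the accompanying lists were called, and those named here were chosen after their values were seen. The shares of all tested genes given beside them count calls in either direction. KRP1 was lower in CNA at -1.70, PHB-SDdelta at -1.95 and CNA-KnC3HDZ_8m at -1.65 on the log2 scale (edgeR adjusted p under 0.05 in each), lines in which 8.01%, 7.03% and 7.01% of all tested genes were called. In CNA-SmHOX32, 5 of 13 histone genes were lower, H4c, H4e, H4f, H4g and H4h, against 10.1% of all tested genes, and in CNA-PpHOX32 2 of 13, H31d at -2.34 and H4g at -0.73 on the log2 scale, against 5.48%. CYCA3-2, an A3-type cyclin, was lower in CNA-SDdelta, where 4.8% of all genes were called, at 0.0845 ± 0.0771 CPM in induced and 5.78 ± 5.58 CPM in mock seedlings (SD, n = 3 each), at least 12.6-fold lower against the floor of 3 counts per induced library (edgeR adjusted p = 0.0227).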
